A study of Mus musculus with 4 samples.

Results

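The 7 genes described here encode the enzymes that write and erase DNA methylation, with the partner protein that directs its maintenance. They were selected by symbol in mouse Th2 cells, from an RNA sequencing series on Menin: the writers Dnmt1, Dnmt3a and Dnmt3b, the partner Uhrf1, and the erasers Tet1, Tet2 and Tet3. All 7 were found among 23283 gene symbols with a usable value. Th2 cells are CD4 helper T cells that make IL-4, IL-5 and IL-13, and here were grown from splenic CD4 T cells of C57BL/6 mice. The 4 groups were wild type (WT) and Menin knockout (KO) cells of a shorter and of a longer culture. The shorter culture was a first stimulation of 5 days in the presence of 15 ng/ml of IL-2 and 10 ng/ml of IL-4. The labels name the longer culture three-week. The longer culture went through the same 5 days, then 2 days with no cytokine added, then 5 days on immobilized anti-TCR antibody, which triggers the T cell receptor, together with IL-2 and anti-IL-4, per the labels' protocols. These steps sum to less than the named time. What filled the rest, how Menin was deleted, how many mice were used and whether cells were pooled are points on which the sources used here are silent. With 1 library in every group, no difference below has a replicate check and no p-value is given.

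DNA methylation in mammals is mostly a mark on the cytosine of CpG pairs. DNMT3A and DNMT3B place it on unmethylated DNA, while DNMT1 copies it to the new strand after replication. UHRF1 binds the half-methylated DNA that replication leaves and brings DNMT1 to it. The TET enzymes oxidise the methyl group, a first step in its removal, and use oxygen, iron and 2-oxoglutarate to do so. In helper T cells DNA methylation takes part in keeping cytokine genes of other lineages silent. Menin, encoded by Men1, is a component of Trithorax group complexes that act on chromatin, and its function in Th2 cells was the question of the series.

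The promoters of Dnmt1 and Uhrf1 are shown because these genes had the lowest KO to WT ratios among the members at or above the expression filter in the longer culture. Tet3, whose level varied least over the 4 libraries, is set beside them. Each window is from RefSeq on GRCm38.p6, the assembly that mm10 also names, and holds 250 bases before a transcript start and 50 from it on, on the strand of the gene. Where a gene had several annotated starts, the window with the most CpG pairs is printed. Capitals mark matches on either strand to 4 forms of the E2F motif, TTTCCCGC or TTTCGCGC or TTTGCCGC or TTTGGCGC. E2F factors act at the entry into DNA replication. Dnmt1 is at chr9:20952574-20952873 on the minus strand, Uhrf1 at chr17:56304063-56304362 on the plus strand, and Tet3 at chr6:83441629-83441928 on the minus strand.
Dnmt1: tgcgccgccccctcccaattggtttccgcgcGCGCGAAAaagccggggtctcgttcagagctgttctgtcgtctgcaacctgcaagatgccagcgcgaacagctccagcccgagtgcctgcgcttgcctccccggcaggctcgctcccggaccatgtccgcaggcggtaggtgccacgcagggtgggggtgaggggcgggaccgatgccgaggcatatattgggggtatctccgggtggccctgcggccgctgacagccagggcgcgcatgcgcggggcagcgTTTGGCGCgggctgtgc
Uhrf1: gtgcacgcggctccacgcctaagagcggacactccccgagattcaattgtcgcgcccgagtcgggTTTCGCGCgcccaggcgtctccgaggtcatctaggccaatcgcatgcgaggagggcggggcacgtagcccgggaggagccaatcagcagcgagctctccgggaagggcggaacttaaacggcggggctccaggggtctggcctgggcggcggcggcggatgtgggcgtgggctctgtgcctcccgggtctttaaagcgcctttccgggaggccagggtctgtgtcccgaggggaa
Tet3: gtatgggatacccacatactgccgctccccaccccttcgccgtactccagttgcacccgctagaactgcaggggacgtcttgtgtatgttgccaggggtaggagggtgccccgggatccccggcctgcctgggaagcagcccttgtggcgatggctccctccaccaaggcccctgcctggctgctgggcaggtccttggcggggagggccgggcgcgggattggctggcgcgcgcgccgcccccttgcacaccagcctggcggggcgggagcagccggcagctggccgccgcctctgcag

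The Dnmt1 window holds 2 E2F matches, whose leftmost bases lie 219 bases upstream of the start and 33 bases downstream of it. The Uhrf1 window holds 1, at 185 bases upstream. The other 3 of their 5 windows hold none. No match was found in the 7 windows of Dnmt3a, Dnmt3b and the Tet genes (0 of 7), so 2 of all 12 windows hold one. Of all 32851 windows of this length 2.26% hold a match, and of the 8701 windows with at least 20 CpG pairs 5.15% do. A gene of the cell cycle list below had a match in any of its windows in 8 of 19 cases, against 2.6% of all 27025 genes in the table. The CCAAT motif was found 3 times in this Dnmt1 window and 2 times in the Uhrf1 window, and is present in 37.4% of all windows. The GC box GGGCGG was found 2 times and 3 times (35.7% of all windows), and the TTTGAA motif in neither (17.9%). All motifs were searched on both strands and their matches may overlap one another. These matches describe letters in a window, not sites in use.

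CpG pairs, the substrate of these enzymes, were dense in the promoters of most of these genes. The printed Dnmt1 and Uhrf1 windows hold 33 each, more than 91.4% of all windows, whose median is 7. Tet2 has 57, more than 99.8% of windows, and its observed to expected ratio of 1.17 compares with a median of 0.384. The most CpG-rich window of Dnmt3a has 47, and Dnmt3b has 30, Tet3 22 and Tet1 17. The upper quartile of all windows is 20, so the Tet1 window lies below it. At other annotated starts Dnmt1 has windows with 2 and 12 CpG pairs. Expression per gene does not show which start was used.

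Levels are in FPKM, a fragment count divided by the length of the transcript and the size of the library, so those of different genes can be set side by side. Depth was inferred at 20.7 to 23.6 M reads per library from the spacing of low values. Intervals on a KO to WT percentage are 95% Clopper-Pearson intervals on the reads each FPKM value implies, and cover counting error only. Genes entered a comparison from a mean of 1 FPKM on, which 10973 symbols and 6 of the 7 members reached. Tet1, with a mean of 0.614, did not. Where a gene is given 4 values in a row, they stand for WT and then KO at 5 days, followed by WT and then KO in the longer culture (called 3-week below). Log2 ratios are log2((KO FPKM + 1)/(WT FPKM + 1)), a scale that understates differences of weakly expressed genes, and a size of at least 1 on it is called 2-fold. Men1 stood at 31.5% of WT in KO cells at 5 days (28.6% to 34.6%) and at 23.1% in the longer culture (20.4% to 26.1%), in the direction of the labels.

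The T helper markers Cd4, Cd3e, Cd3g, Gata3 and Il4 were present in every library. In the longer culture Cd4 stood at 212 FPKM in WT and 307 in KO, and Cd3g at 389 and 1028. The Th2 factor Gata3 stood at 93.8 and 45.9 FPKM there, and Il4 at 21.9 and 6.40. A listed sixth marker, Trac, was not analysed here. Markers of other cells were low, and moved with genotype in some lists. The 3 NK cell markers Ncr1, Klrb1c and Klrd1 summed to 1.85, 5.46, 0.145 and 13.1 FPKM, most of the last from Klrd1. Both CD8 T cell markers together lay between 2.04 and 5.70 FPKM, and the 4 macrophage markers found summed to 0.768, 2.38, 0.196 and 5.12 FPKM. Of these, Itgam, which NK cells also express, stood at 0.0283 FPKM in WT 3-week and 4.75 in KO 3-week, and Emr1 at 0.440 in WT and 1.82 in KO at 5 days. The 4 B cell markers summed to 1.62, 2.72, 0.155 and 0.278 FPKM, with Cd79b at 1.35 in WT and 1.68 in KO at 5 days. Ms4a1, another of them, was listed at 0 in both longer cultures and stood at 0.166 FPKM in KO 5-day. Csf1r, which defines macrophages, lay at or below 0.0130 FPKM in every library. The regulatory T cell factor Foxp3 lay between 0.133 and 3.61 FPKM, and the erythroid globins Hba-a1 and Hbb-b1 summed to between 0.831 FPKM and 12 FPKM. The part of these cells in the results below was not tested. In bulk RNA, fewer cells of a kind and less RNA per cell cannot be told apart.

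The maintenance pair, Dnmt1 and Uhrf1, made up most of the RNA of these genes and stood lowest in the KO cells of the longer culture. Dnmt1 (ENSMUSG00000004099, chromosome 9, 20907209 to 20959888, minus strand, GRCm38 as in all gene positions here) stood at 144 FPKM in WT and 121 in KO at 5 days, and at 110.0 in WT and 59.6 in KO in the longer culture. The KO level was 83.5% of WT at 5 days (81.6% to 85.4%) and 54.2% in the longer culture (52.6% to 55.8%). Each of the 3 steps in this order was beyond counting error, and the KO 3-week library lay apart from the other 3. Uhrf1 (ENSMUSG00000001228, chromosome 17, 56303321 to 56323486, plus strand) stood at 107, 84.4, 78.5 and 29.7 FPKM. Its KO level was 78.7% of WT at 5 days (76.1% to 81.4%) and 37.8% in the longer culture (36.0% to 39.8%). The order of the 4 libraries was the same as for Dnmt1, and each step was beyond counting error.

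**Figure D1:**
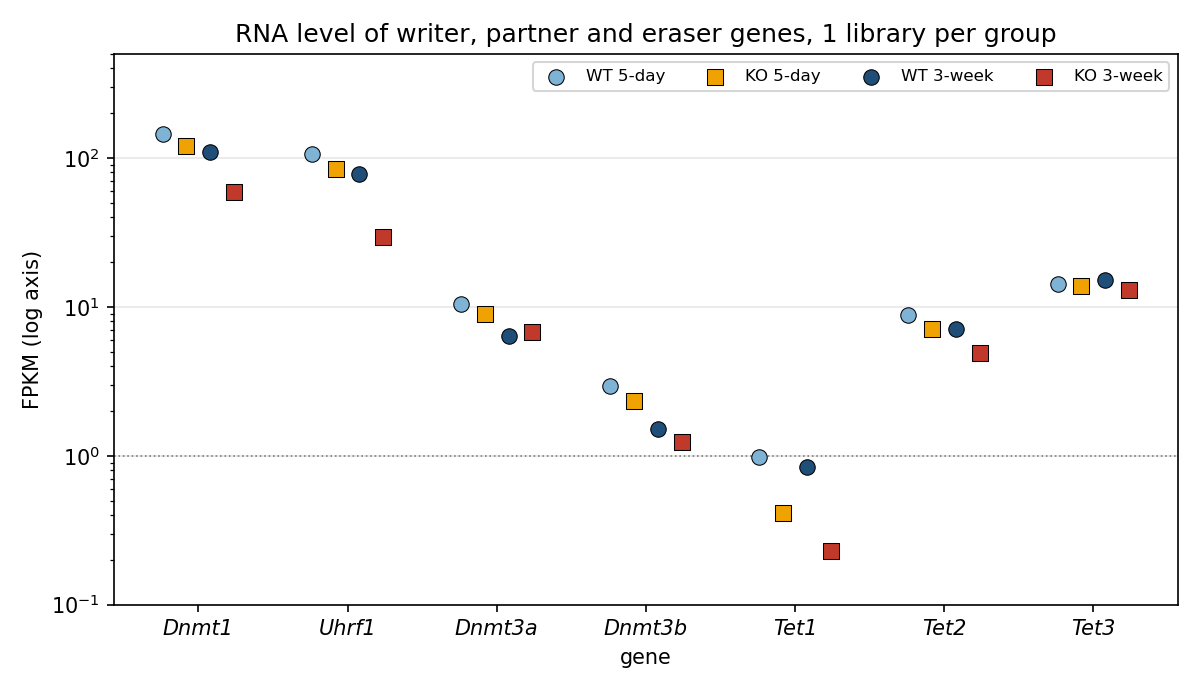
FPKM on a log axis for the 7 genes, with 1 point for each library (circles WT, light blue at 5 days and dark blue at 3 weeks; squares KO, orange and red) and a dotted line at 1 FPKM. Dnmt1 and Uhrf1 lie highest, and their KO 3-week points, at 59.6 and 29.7 FPKM, lie below the other 3 points of each gene.

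Uhrf1 RNA was lower relative to Dnmt1 RNA in KO 3-week than in the other libraries. The ratio of Uhrf1 to Dnmt1 FPKM was 0.742 and 0.713 in the WT libraries at 5 days and later, and 0.700 and 0.499 in the KO libraries. Between genotypes this ratio differed by a factor of 0.943 at 5 days (counting interval 0.905 to 0.982) and 0.699 in the longer culture (0.659 to 0.740). A ratio within a library does not depend on the scaling of that library. On the log2 scale Uhrf1 differed by -0.34 at 5 days and by -1.37 in the longer culture, and Dnmt1 by -0.26 and -0.87. Uhrf1 was the 1 member of 6 called 2-fold lower in the longer culture, where 8.19% of all compared genes were. For the difference between the 2 genotype ratios Uhrf1 lay at -1.03 and was again the 1 of 6 past 2-fold, where 4.7% of compared genes lay as low and 4.53% as far above 0. It was above -1 with either other scaling (-0.95 and -0.94) or a pseudocount of 5 (-0.94).

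The de novo writers were lower in the longer culture than at 5 days, with small differences by genotype. Dnmt3a (ENSMUSG00000020661, chromosome 12, 3806007 to 3914443) stood at 10.4, 9.02, 6.35 and 6.75 FPKM. The KO level was 86.8% of WT at 5 days (81.2% to 92.7%) and 106% in the longer culture (98.4% to 115%). Both 5-day libraries lay above both longer cultures. In the deposited FPKM the WT 3-week and KO 3-week libraries did not differ beyond counting error. Their log2 ratio of 0.08 was 0.17 and 0.18 with the other scalings, for which no interval was made. Dnmt3b (ENSMUSG00000027478, chromosome 2, 153649450 to 153687730) stood at 2.95, 2.34, 1.52 and 1.24 FPKM. Its KO level was 79.3% of WT at 5 days (65.6% to 96.0%) and 81.7% in the longer culture (62.6% to 105.5%), and these rest on only 105 to 240 implied reads per library. Dnmt3a, Dnmt3b and Tet2 each overlap an annotated gene on the opposite strand, and no source used here says whether reads were assigned by strand.

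Of the erasers, Tet1 was the least abundant and had the lowest KO to WT ratio of all 7 genes at both times. Tet1 (ENSMUSG00000047146, chromosome 10, 62804570 to 62908996) stood at 0.975, 0.414, 0.839 and 0.228 FPKM. Both KO libraries lay below both WT libraries, while WT 5-day and WT 3-week did not differ beyond counting error. The KO level was 42.5% of WT at 5 days (34.3% to 52.5%), from 131 and 282 implied reads. In the longer culture it was 27.2% (20.6% to 35.5%), from 69 and 277 implied reads. On the main log2 scale these differences were only -0.48 and -0.58, because the pseudocount of 1 exceeds the level itself. With a pseudocount of 0.1 they were -1.06 and -1.52. With that pseudocount and a mean FPKM of at least 0.5, a setting chosen after seeing the data, 1.47% of 11736 genes were as much as 2-fold lower at 5 days and 10.4% in the longer culture.

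Tet2 (ENSMUSG00000040943, chromosome 3, 133463679 to 133545139) stood at 8.84, 7.06, 7.08 and 4.93 FPKM. WT 5-day was highest, KO 3-week lowest, and the middle 2 libraries did not differ beyond counting error. The KO level was 79.9% of WT at 5 days (74.3% to 85.8%) and 69.6% in the longer culture (64.1% to 75.6%). Tet3 (ENSMUSG00000034832, chromosome 6, 83362373 to 83459084) was the most abundant eraser and the steadiest member, at 14.2, 13.8, 15.2 and 13 FPKM. Its KO level was 97.0% of WT at 5 days (92.4% to 102%) and 85.7% in the longer culture (81.7% to 89.9%), where its log2 ratio of -0.21 was -0.11 and -0.10 with the other scalings. The highest Tet3 value was 1.17 times the lowest, against 4.28 times for Tet1 and 3.61 times for Uhrf1. B230319C09Rik, a gene on the opposite strand that overlaps Tet3, lay between 0.0886 and 0.341 FPKM.

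**Figure D2:**
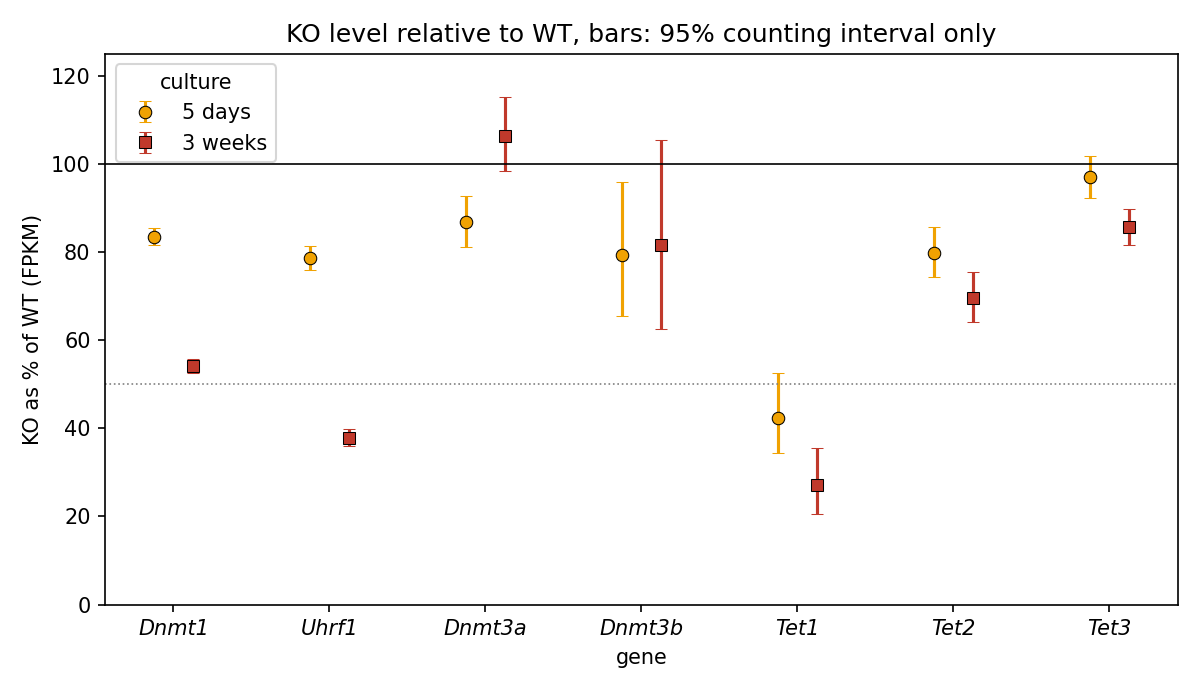
KO FPKM as a percentage of WT FPKM for each gene at 5 days (circles) and in the longer culture (squares), with 95% intervals that cover counting error only, a solid line at 100% and a dotted line at 50%. Uhrf1 at 37.8% and Tet1 at 27.2% lie below 50% in the longer culture, and Dnmt3a at 106% lies above 100%.

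At 5 days all 7 members had a lower FPKM in KO than in WT, 6 of them with a counting interval below 100%. Of the 6 compared members 0 were 2-fold higher and 0 were 2-fold lower, where 2.77% of all compared genes were 2-fold higher and 0.82% lower. All 6 had a log2 ratio below 0, as had 53.6% of all compared genes, and their median was -0.25 against -0.02 over all. Of the compared genes, 9.71% had a lower log2 ratio than Uhrf1, 13.4% than Tet2, 15.8% than Dnmt1 and 47.1% than Tet3.

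In the longer culture 6 members had a lower and 1 a higher FPKM in KO. Of the 6 compared members 0 were 2-fold higher and 1, Uhrf1, was 2-fold lower, where 7.97% of all compared genes were higher and 8.19% lower. These are 874 and 899 genes, but 1001 and 711 with median-of-ratios scaling and 1010 and 698 with upper-quartile scaling. The median was -0.33 against -0.08 over all compared genes, and 5 of 6 lay below 0, as did 55.8% of all. A lower log2 ratio than that of Uhrf1 was found for 3.28% of compared genes, than that of Dnmt1 for 10.9%, and than that of Tet2 for 27.5%. Dnmt3b at 44.1%, Tet3 at 41.6% and Dnmt3a at 61.2% lay near the middle of all genes. Uhrf1 and Dnmt1 lay toward the low end at both times, and Tet2 less so in the longer culture than at 5 days.

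**Figure D3:**
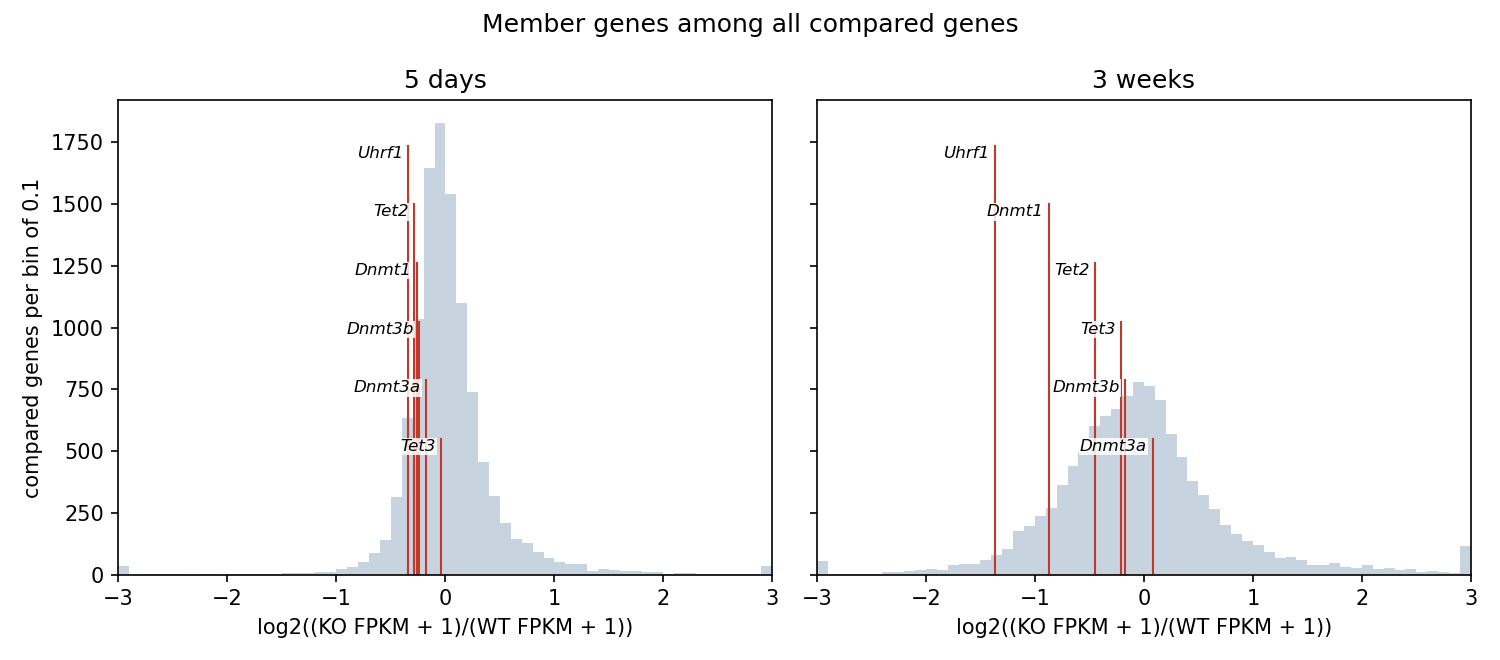
Number of compared genes by log2 ratio of KO to WT in bins of 0.1 (grey; the end bins also hold all genes beyond the axis), with the 6 compared members as lines whose heights only keep the labels apart. At 5 days the members lie between -0.34 and -0.04, and in the longer culture they spread from -1.37 for Uhrf1 to 0.08 for Dnmt3a.

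Genes of the cell cycle, listed because DNMT1 and UHRF1 act at replication, were lower in the same libraries. Of 24 compared cell cycle genes 23 lay below 0 at 5 days, with a median of -0.26 and 0 past 2-fold. In the longer culture 24 of 24 lay below 0, 10 of them past 2-fold, and their median was -0.97. Over all compared genes 53.6% lay below 0 at 5 days and 55.8% in the longer culture, with medians of -0.02 and -0.08. Of all compared genes 0.82% were 2-fold lower and 2.77% higher at 5 days, and 8.19% and 7.97% in the longer culture. Top2a, a topoisomerase of dividing cells, stood at 172 FPKM in WT 3-week and 76.9 in KO 3-week. Rrm1, a subunit of the enzyme that makes deoxynucleotides, stood at 106 and 40.1 FPKM. The Dnmt1 ratio of -0.87 lay above 15 of these 24 genes in the longer culture. The Uhrf1 ratio of -1.37 lay above 1 of 24, within their range of -1.38 to -0.43. Tet2 lay above 23 of the 24 in the longer culture. At 5 days Dnmt1 lay above 13 of the 24, Uhrf1 above 4 and Tet2 above 7, so Tet2 was not set apart then. How far the share of dividing cells moves with Dnmt1 and Uhrf1 was not tested.

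Of 10 compared genes for proteins that work with DNMT1 or UHRF1, 0 were past 2-fold at 5 days, where 8 lay below 0 and 2 above (median -0.18). In the longer culture 4 were 2-fold lower and 0 higher, where 8.19% of all compared genes were lower and 7.97% higher. There 9 of the 10 lay below 0 and 1 above (median -0.69). Over all compared genes 2.77% were 2-fold higher and 0.82% lower at 5 days. Below 0 lay 53.6% of all compared genes at 5 days and 55.8% in the longer culture. Cdca7, which recruits the remodeller HELLS, stood at 33.0, 17.2, 33.0 and 4.34 FPKM. Its KO level was 52.1% of WT at 5 days (47.9% to 56.7%) and 13.2% in the longer culture (11.4% to 15.2%). Hells stood at 47.9, 36.1, 46.3 and 17.9 FPKM, and Lig1, the replicative DNA ligase that UHRF1 binds, at 110.2, 101, 112 and 46.7 FPKM. The replication-associated gene 2810417H13Rik was the remaining 2-fold lower partner, at 108 FPKM in WT 3-week and 37.7 in KO 3-week. Usp7, a deubiquitinase that binds DNMT1 and UHRF1, stood at 30.7 and 23.3 FPKM. Ehmt2, a histone H3K9 methyltransferase, lay on the other side, at 119% of WT at 5 days (115% to 124%) and 105% in the longer culture (102% to 109%). Dmap1, a DNMT1-binding protein, stood at 101% (88.5% to 115%) and 92.2% (80.5% to 106%), and both intervals include 100%. All 4 of the 2-fold lower partners had their lowest value in KO 3-week, which their selection by that library makes likely. Every member except Dnmt3a also had its lowest value there.

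Readers and de novo partners showed 0 genes past 2-fold in either genotype comparison. Over all compared genes 2.77% were 2-fold higher and 0.82% lower at 5 days, and 7.97% and 8.19% in the longer culture. At such shares, lists this short can hold none. The 9 compared methyl-CpG readers, proteins that bind methylated DNA, had medians of -0.01 at 5 days and 0.04 in the longer culture. Mbd2 stood highest among them, at 82.9 FPKM in WT 3-week and 96.3 in KO 3-week, and Uhrf2, the relative of Uhrf1, stood at 21.9 and 22.5 FPKM. Others lay on opposite sides in the longer culture: Zbtb4 stood at 196% of WT (176% to 217%) and Mbd3, a subunit of the NuRD complex, at 59.4% (54.8% to 64.4%). The 4 compared partners of de novo methylation had medians of -0.16 and -0.45. Among them Trim28, a corepressor, stood at 88.4 and 50.8 FPKM and the H3K36 methyltransferase gene Whsc1 at 33.8 and 18.7 FPKM in the longer culture. The remaining compared partners lay nearer to WT there, Nsd1 at 92.1% (88.2% to 96.2%) and Setd2 at 95.1% (90.2% to 100.1%). Dnmt3l, a cofactor of the de novo writers, lay at or below 0.0945 FPKM in every library.

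Of 11 compared genes for excision and repair of oxidised bases, 1 was 2-fold higher and 2 were 2-fold lower in the longer culture (median -0.24), and 0 at 5 days (median -0.06). Over all compared genes 7.97% were higher and 8.19% lower in the longer culture, and 2.77% and 0.82% at 5 days. Tdg, the glycosylase that removes the products of TET oxidation, stood at 2.13, 1.89, 1.94 and 1.40 FPKM. Apex1, which cuts the strand after base removal, stood at 29.5, 20.8, 36.6 and 7.21 FPKM, and Parp1, a sensor of strand breaks, at 54.9, 47.5, 55 and 24 FPKM. The higher gene was Gadd45g, a stress-response gene, at 26.6, 45.4, 27.8 and 96.1 FPKM. For reference, 8 household genes had medians of -0.17 and -0.46, with 1 of 8, Hprt, 2-fold lower in the longer culture.

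**Figure D4:**
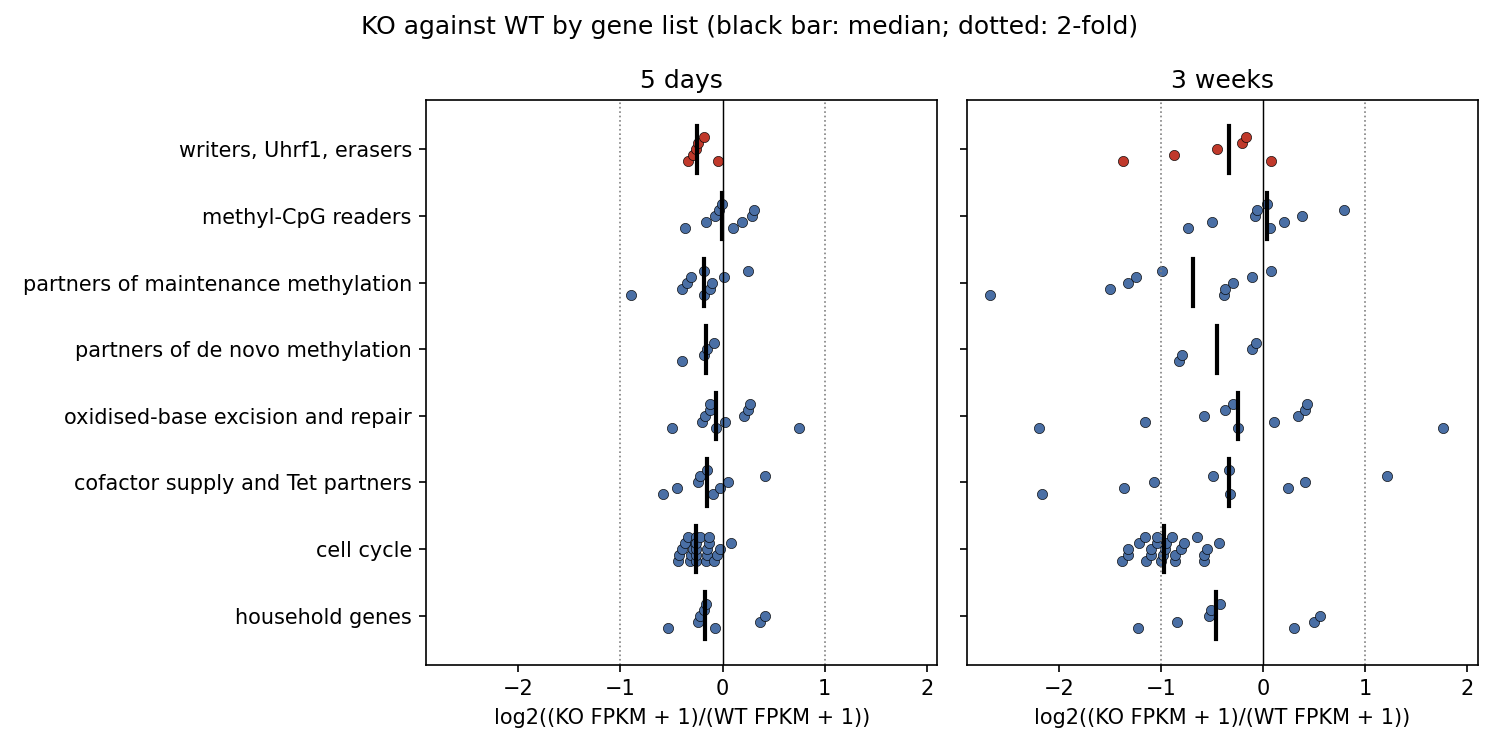
Log2 ratio of KO to WT for each compared gene (points) of the members and 7 lists, at 5 days and in the longer culture, with black bars for medians and dotted lines at 2-fold. In the longer culture the cell cycle list (median -0.97) and the maintenance partners (median -0.69) lie lowest, and the methyl-CpG readers (median 0.04) lie around 0.

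Between culture times, which reuse the same 4 libraries, the writers were lower in the longer culture in both genotypes. In WT cells Dnmt1 stood at 76.1% of its 5-day level (74.4% to 77.9%), Uhrf1 at 73.2% (70.7% to 75.8%), Dnmt3a at 61.1% (56.8% to 65.6%) and Dnmt3b at 51.4% (41.5% to 63.7%). In WT 0 of 6 compared members were 2-fold higher or lower, where 3.03% of compared genes were higher and 2.83% lower. In KO cells Uhrf1 stood at 35.2% (33.5% to 37.0%) and Dnmt1 at 49.4% (48.0% to 50.9%), and these 2 of 6 were 2-fold lower, where 4.39% of compared genes were lower and 4.35% higher. Dnmt1 was at that limit, with a log2 ratio of -1.01, and was above -1 with either other scaling (-0.93 and -0.94) or a pseudocount of 5 (-0.96). Dnmt3a stood at 74.9% in KO (69.6% to 80.6%) and Dnmt3b at 53.0% (41.4% to 67.1%). Among the erasers, Tet2 stood at 80.2% in WT (74.7% to 86.1%) and at 69.8% in KO (64.3% to 75.9%), and Tet1 at 86.0% (72.7% to 102%) and 55% (40.6% to 74.3%). Tet3 stood at 107% in WT (102% to 112%) and 94.1% in KO (89.6% to 98.9%). In KO cells writers and erasers thus overlapped, with Dnmt3a between Tet3 and Tet2, and Tet1 near Dnmt3b.

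Summed over the 3 writers, the levels were 158, 132, 118 and 67.6 FPKM. Summed over the 3 erasers they were 24, 21.3, 23.1 and 18.1 FPKM. The sum of writers was 6.57, 6.20, 5.11 and 3.72 times that of erasers, lowest in KO 3-week. Dnmt1 gave between 88.2% and 93.3% of the writer sum, and its share was lowest in KO 3-week. In that library Dnmt3a gave 9.99%, against 5.38% in WT 3-week, at a similar Dnmt3a level. Tet3 gave 59.2% of the eraser sum in WT 5-day and 71.6% in KO 3-week, while Tet2 gave 36.8% and 27.2%, and Tet1 4.06% and 1.25%.

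Genes with the most similar profile were found by the distance between log2(FPKM + 1) values over the 4 libraries, each centred on its own mean, among 8137 genes with a mean FPKM of at least 5. Nearest to Uhrf1 were Cks2 at a distance of 0.023, Scarb1 at 0.031 and 2610002D18Rik at 0.095. Cks2 stood at 107, 85, 80.4 and 30.0 FPKM. Nearest to Dnmt1 were Ercc6l, 1110038B12Rik and Hmgn2 at 0.038 to 0.066, and nearest to Dnmt3a were Cdkn2c, Tfeb and 1500012F01Rik at 0.049 to 0.077. Dnmt3b lay nearest to Wdr67, Hspa4l and Ccm2 (0.043 to 0.055), Tet2 to Rbmx, Khsrp and 1110049F12Rik (0.029 to 0.035), and Tet3 to Polr3f, Ndufa11 and Srsf5 (0.014 to 0.026). Dnmt1 was the 121st nearest gene to Uhrf1 at 0.443, and Tet3, the farthest member from Uhrf1, lay at 1.285. In the other direction Uhrf1 was the 674th nearest gene to Dnmt1, and Tet2 was about as near to Dnmt1, at 0.451. The closest pair of compared members was Dnmt3b and Dnmt3a, at 0.211. With 4 points per profile many genes lie this close, so the distances are a description.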

How the data were processed

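The deposited values are FPKM per gene symbol from TruSeq Stranded mRNA libraries, 1 file per library. The tools named are TopHat 1.3.2, Cufflinks 2.0.2 and Bowtie 0.12.8 on mm10, per the submitters' processing notes. For layout, annotation, strand setting and filters the sources used here say nothing. Every deposited table had 23746 lines; 240 symbols on 702 lines were summed, and 1 symbol with a spreadsheet error mark was left out. Depth was inferred from genes with 1 transcript in GENCODE M21: with 200 bases taken off the length, 59.6% to 61.8% of low values lay within 0.05 of a whole read, against 10% for evenly spread values. A member's length was the median of its RefSeq-linked transcripts, so implied reads are approximate. Members and lists were chosen with earlier results of these data known. Named genes were the members, Men1, the 3 nearest profiles per compared member without short RNA genes, and genes of the lists. Alternatives changed the pseudocount, scaling, filter and treatment of repeated symbols. The steps were tested on simulated data. A marker result is not reported here. Analysis used Python 3.11.15, pandas 2.3.3 and scipy 1.17.1.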

Additional observations from a re-analysis of the deposited data

Results flagged for a closer look

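Dnmt3a was the 1 member whose KO to WT ratio of FPKM lay on opposite sides of 1 at the 2 culture times, at 0.868 at 5 days and 1.06 in the longer culture, so that the later ratio was 1.23 times the earlier one. The difference was not tested, since each group is 1 library. The counting interval in the longer culture (0.984 to 1.15) includes 1, but holds for the deposited FPKM only. There the log2 ratio of 0.08 was 0.17 and 0.18 with the other scalings.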

How the results depend on the processing

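No paired analysis was possible because each group held 1 library and the labels give no replicate numbers; leaving out a library was likewise not possible. All 7 members kept the sign of their log2 ratio in both genotype comparisons under 5 planned settings. A change of pseudocount cannot turn the sign of a log2 ratio. Keeping the highest line of a symbol left the ratios of the writers, Uhrf1, Tet1 and Tet2 unchanged to the digits given. For these genes only the other scalings could have turned a sign. Uhrf1 in the longer culture ranged from -1.40 to -1.26, Dnmt1 from -0.88 to -0.76, Tet1 from -1.52 to -0.16 and Dnmt3a from 0.05 to 0.18. The count of all genes past 2-fold was 394 at 5 days, 642 with a pseudocount of 0.1 and 178 with a pseudocount of 5. With a pseudocount of 5 it was 898 instead of 1773 in the longer culture, 276 instead of 643 between times in WT, 468 instead of 959 between times in KO, and 477 instead of 1013 for the difference of the genotype comparisons. With a mean filter of 5 FPKM the WT count between times was 421. With a pseudocount of 0.1 and a mean FPKM of at least 0.5, chosen after seeing the data, 833 genes were past 2-fold at 5 days, and 2-fold lower members numbered 1 instead of 0 at 5 days and 2 instead of 1 in the longer culture, the added one being Tet1. With a pseudocount of 5, median-of-ratios or upper-quartile scaling, 2-fold lower members between times in KO numbered 1 instead of 2, and for the difference of the genotype comparisons 0 instead of 1. Under both scalings the log2 ratio of the writer sum in the longer culture was -0.69 instead of -0.80, and that of the eraser sum -0.24 and -0.23 instead of -0.35. Depth limits Tet1 and Dnmt3b most, with as few as 69 and 105 implied reads.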

Other observations

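The enzymes that supply the cofactors of these reactions stood on both sides. Of 9 compared genes for cofactor supply and Tet partners, 0 were past 2-fold at 5 days. In the longer culture 1 of the 9 was 2-fold higher and 3 were lower in KO (median -0.33). Over all compared genes 2.77% were higher and 0.82% lower at 5 days, and 7.97% and 8.19% in the longer culture. Mat2a, which makes the methyl donor S-adenosylmethionine, stood at 76.4 FPKM in WT 3-week and 29.2 in KO 3-week, 38.1% of WT (counting interval 36.2% to 40.2%). Ahcy, which clears the product of methylation reactions, stood at 106 and 50.2 FPKM. Of the 3 listed isocitrate dehydrogenase genes, whose enzymes make 2-oxoglutarate, Idh2 and Idh3a were lower in KO at both times and the weakly expressed Idh1 was higher. Idh2, the mitochondrial NADP enzyme, stood at 28.9, 19.0, 22.4 and 4.25 FPKM (WT and KO at 5 days, then WT and KO in the longer culture), and the cytosolic Idh1 at 3.07, 4.43, 2.38 and 6.83 FPKM. Idh3a, a subunit of the mitochondrial NAD enzyme, stood at 84.2% of WT at 5 days (76.9% to 92.1%) and 70.4% in the longer culture (65.4% to 75.7%). Ogt, a sugar transferase that binds TET proteins, stood at 43.9 and 58.7 FPKM in the longer culture. Over the 5 pathway lists together, 43 compared genes held 2 that were 2-fold higher and 9 that were lower in the longer culture, where 7.97% and 8.19% of all compared genes were, with Cdca7 lowest and Gadd45g highest at both times.

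Germline genes known to be silenced by promoter methylation gave little RNA in any library. Of 15 listed genes, 14 lay below 1 FPKM in each library, and 10, 8, 11 and 8 were listed at 0 in these libraries in the same order. The exception was Piwil2, a gene of the germline small RNA pathway, at 1.72, 2.93, 1.45 and 2.69 FPKM in the same order. Both KO libraries lay above both WT libraries for it, and its log2 ratios of 0.53 and 0.59 were below 2-fold. DNA methylation itself was not measured in these libraries.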
